A study of Saccharomyces cerevisiae with 12 samples.

Results

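The genes described here are 9 genes with which budding yeast uses allantoin and urea as nitrogen sources. They were chosen by their systematic names, and all 9 were found among the 6293 genes on the array and had a value on all 24 arrays. They are DAL5 (YJR152W), DAL4 (YIR028W), DUR3 (YHL016C), DAL1 (YIR027C), DAL2 (YIR029W), DAL3 (YIR032C), DUR1,2 (YBR208C), DAL7 (YIR031C) and DCG1 (YIR030C). Their RNA was followed in Saccharomyces cerevisiae of strain SK1, a laboratory background that sporulates quickly, over 6.0 h of sporulation. Samples were taken at 0.0, 0.5, 1.0, 1.5, 2.0, 2.5, 3.5, 4.0, 4.5, 5.0, 5.5 and 6.0 h, and a 3.0 h sample was not analysed here. Every sample shared the strain and differed from the others only in time. Each was 1 pool of cells from 6 synchronized cultures grown on 1 day, and no sample came from cells kept out of sporulation. The medium is not named in the labels. Total RNA of each time was set against RNA of time zero on 2 spotted 2-colour arrays. On the A array the later RNA was labelled with the dye Cy5, and on the B array with Cy3.

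Allantoin is a nitrogen-rich breakdown product of purines. Yeast imports it with Dal4 and opens its ring with allantoinase, Dal1, which gives allantoate; allantoate can also be imported by Dal5. Allantoicase, Dal2, and ureidoglycolate lyase, Dal3, then release urea and glyoxylate. Urea, also imported by Dur3, is split to ammonium and carbon dioxide by urea amidolyase, the product of DUR1,2, and the malate synthase Dal7 joins glyoxylate to acetyl-CoA. These genes are known to be repressed while a preferred nitrogen source is present. Several of them, but not all, are also induced by allophanate, an intermediate of urea breakdown. Sporulation is the programme in which diploid yeast, starved of nitrogen on a non-fermentable carbon source, undergoes meiosis and encloses the resulting nuclei in spores.

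Values are log2 ratios of the later RNA over time-zero RNA, so that 1 is a doubling, and each time has 1 value, the mean of its A and B arrays. They are ratios within an array and say nothing of one gene's RNA level against another's. In RNA of a whole culture, fewer cells of a type and less RNA per cell cannot be told apart. Times were grouped into an early window (0.5 to 2.0 h, n = 4), a middle window (2.5 to 4.5 h, n = 4) and a late window (5.0 to 6.0 h, n = 3), with the 0.0 h sample alone as zero. Because each time is 1 pooled sample, p-values measure the spread between neighbouring times, and the number of samples, 1 per time, limits the precision.

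Across genes, r between the A and B arrays of each time had a median of 0.270, and was as low as -0.01 at 5.0 h and -0.02 at 6.0 h; genes are not independent replicates. The 5.0 and 6.0 h samples therefore stand apart. For the 9 allantoin and urea genes, arrays of other times differed as well. At 3.5 h the median of the 9 genes was 1.22 on the A array and -0.02 on the B array. At 5.5 h it was 1.36 and 0.15. Across the 9 genes, r between the A and B arrays was 0.36 at 3.5 h, 0.13 at 5.5 h and 0.12 at 2.0 h. It was 0.35 at 5.0 h and 0.36 at 6.0 h, so for the 9 genes these samples did not stand apart by this measure. Of 8 genes of the sporulation programme, 3 were called higher in the late than in the middle window (median 2.33), against 3.31% of all genes. The median of these 8 genes lay between 1.29 and 4.18 in the late samples, with 31 of 48 readings of a gene on an array above the blank spots. The median of 6 haploid genes lay between -0.08 and 0.70, with 23 of 36 readings above the blanks. The haploid genes went both ways. Late means were 2.33 for STE4, 1.00 for STE3, 0.93 for MFA1 and 0.18 for STE2. They were -0.36 for GPA1 and -0.54 for HO. The median of 3 vegetative G1 genes lay between -1.09 and 0.03, with 6 of 18 readings above the blanks. In either list 0 genes were called. The part of these shifts in the results below was not tested.

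**Figure D1:**
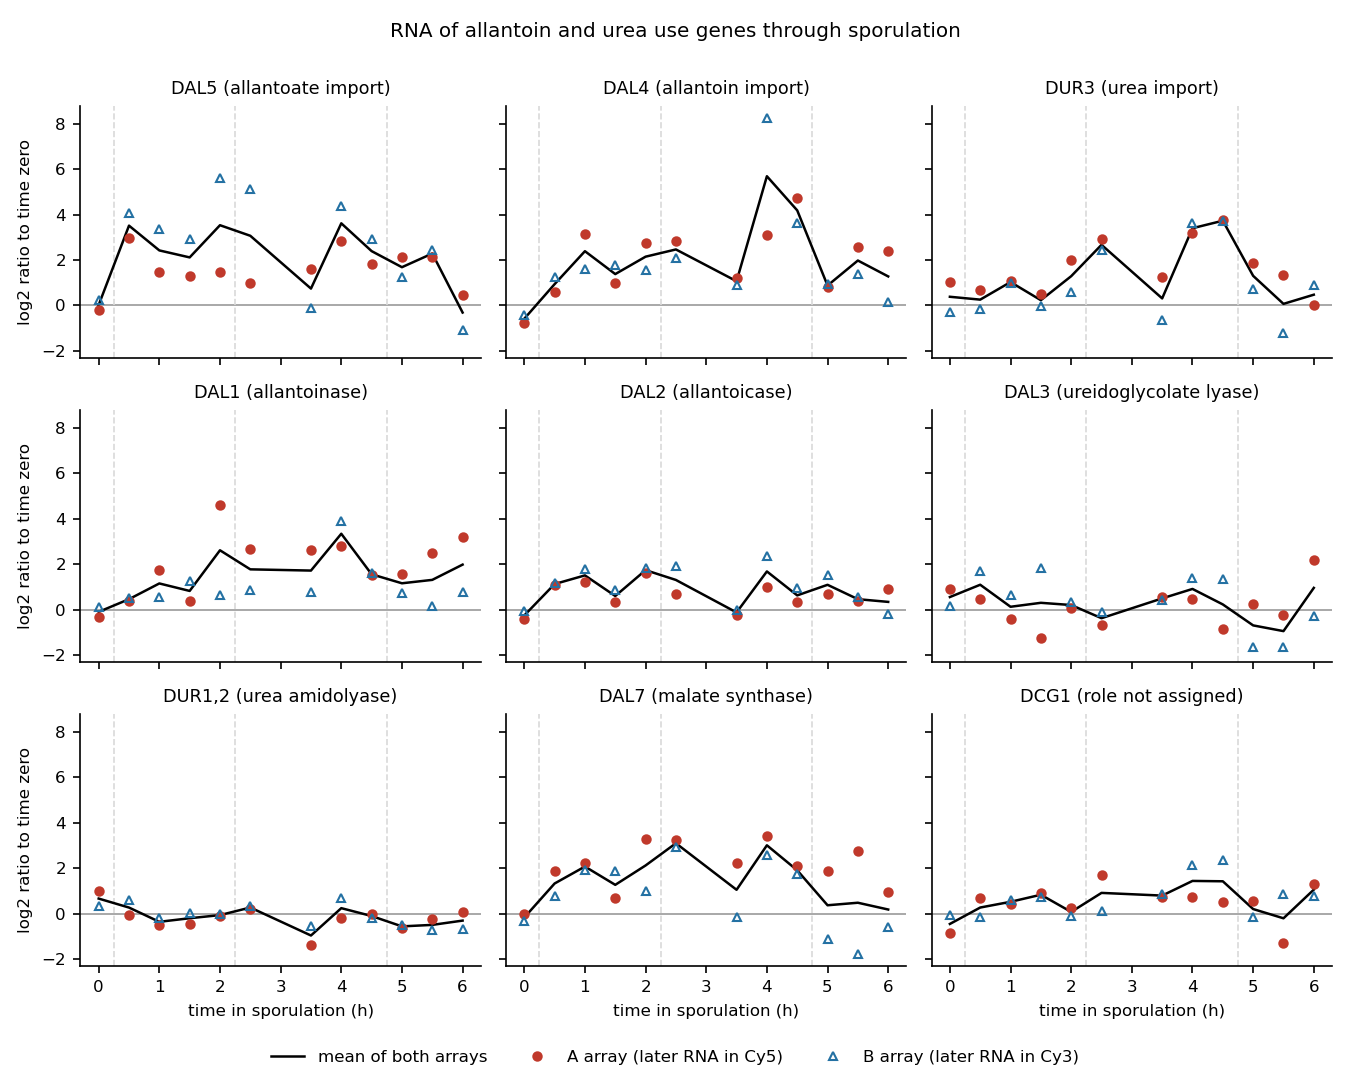
Log2 ratio of the later RNA over time zero (y axis) against hours of sporulation (x axis) for each of the 9 genes; the line is the mean of both arrays, circles are A arrays, triangles are B arrays, and dashed lines part the windows. DAL4 reached 5.68 at 4.0 h, whereas DUR1,2 stayed between -0.95 and 0.67.

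The import genes reached the highest single ratios of the group. DAL5, the allantoate permease gene, was at 0.02 at 0.0 h and at 3.51 at 0.5 h, followed by 2.42 at 1.0 h, 2.11 at 1.5 h and 3.53 at 2.0 h. Its middle values were 3.06 at 2.5 h, 0.74 at 3.5 h, 3.61 at 4.0 h and 2.39 at 4.5 h, and its late values were 1.68 at 5.0 h, 2.28 at 5.5 h and -0.31 at 6.0 h. The 4 early samples all lay above the 0.0 h sample, and the 3.5 and 6.0 h samples were the low ones. The 0.5 h value depended on the source: the authors' deposited table gives DAL5 as 0.25 there, and with that table the early minus zero difference was 1.50 in place of 2.87. The 2 arrays of a time differed in size: at 2.0 h the B array gave 5.60 and the A array 1.46, and at 3.5 h the B array gave -0.12 and the A array 1.60. DAL5 RNA of the later time was above the blank spots on 23 of 24 arrays, and its time-zero RNA on 13.

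DAL4, the allantoin permease gene, climbed later. It was at -0.59 at 0.0 h, then at 0.94, 2.39, 1.38 and 2.15 from 0.5 to 2.0 h, and at 2.46 at 2.5 h, 1.07 at 3.5 h, 5.68 at 4.0 h and 4.18 at 4.5 h. The late samples were at 0.88, 1.98 and 1.28 at 5.0, 5.5 and 6.0 h. The 4.0 and 4.5 h samples stood above every other, and all 22 arrays after 0.0 h gave a ratio above 0. The 4.0 h value averaged 3.10 on the A array and 8.27 on the B array. Time-zero RNA of DAL4 was above the blank spots on only 3 of 24 arrays, and on neither array of 4.0 h, so that the size of the ratio there rests on a denominator not well above background. In the early window it was above them on 0 of 8 arrays, and its later RNA on 5 of 8, which leaves an estimated lower bound of 1.82-fold. Bounds average all arrays of a window, those with both RNAs near the blanks included, and are not a minimum for each time. They come from the single channels after normalization, carry no error estimate and are open to dye bias.

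DUR3, which encodes a transporter of urea and polyamines, had its highest ratios at 2.5, 4.0 and 4.5 h. It was at 0.38 at 0.0 h and at 0.26, 1.03, 0.23 and 1.29 in the early samples, so the early samples overlapped the 0.0 h sample. In the middle window it was at 2.67 at 2.5 h, 0.31 at 3.5 h, 3.40 at 4.0 h and 3.73 at 4.5 h, and in the late window at 1.30, 0.07 and 0.47. At 2.5, 4.0 and 4.5 h the A and B arrays lay close together, at 2.91 and 2.42, 3.19 and 3.61, and 3.75 and 3.70. However, time-zero RNA of DUR3 was above the blank spots on neither array of 2.5 and 4.0 h. At 4.5 h it was above them on the B array only, and in the middle window on 2 of 8 arrays. The size of these ratios thus rests on a denominator not well above background. The 3.5 h sample was again low, at 1.24 on the A array and -0.62 on the B array. Time-zero RNA of DUR3 was above the blank spots on 7 of 24 arrays and on 0 of 8 in the early window. Its later RNA was above them there on 4, and the estimated lower bound, a window average, was 1.56-fold. Against a ratio of 0 the early mean was 0.70 ± 0.44 (SE, adjusted p = 0.353 by limma), so a rise was not established. Set against the 0.0 h sample, the early difference was only 0.32 ± 0.97 (SE).

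Among the enzymes of the pathway, DAL1 and DAL2, which carry the first steps, were above time zero through most of the course. DAL1, the allantoinase gene, was at -0.10 at 0.0 h, at 0.46, 1.15, 0.82 and 2.61 in the early samples, at 1.77, 1.72, 3.34 and 1.56 in the middle samples and at 1.16, 1.31 and 1.98 in the late samples. It was lowest at 0.0 h, highest at 4.0 h, and above 0 on all 22 arrays after 0.0 h, as DAL4 was; over all genes tested this held for 0.191%. Its largest single-array value was 4.59 on the A array of 2.0 h, where the B array gave 0.63. Time-zero RNA of DAL1 was above the blank spots on 3 of 24 arrays. In the early window it was on 0 of 8, with the later RNA on 4, and the estimated lower bound was 1.49-fold.

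DAL2, the allantoicase gene, was well measured in both RNAs, with the later RNA above the blank spots on 22 of 24 arrays and time-zero RNA on 20. It was at -0.26 at 0.0 h, at 1.13, 1.51, 0.60 and 1.74 in the early samples, at 1.31, -0.12, 1.68 and 0.63 in the middle samples and at 1.09, 0.46 and 0.34 in the late samples. Every later sample lay above the 0.0 h sample, and the 3.5 h sample was the lowest of them. In the early window the A and B arrays differed by no more than 0.57 at any time.

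DAL3 and DUR1,2, which act further down the pathway, did not share this course. DAL3, the ureidoglycolate lyase gene, was at 0.55 at 0.0 h, at 1.10, 0.13, 0.30 and 0.20 in the early samples, at -0.38, 0.49, 0.91 and 0.23 in the middle samples and at -0.69, -0.94 and 0.96 in the late samples. The samples of each window lay on both sides of the 0.0 h value, and the A and B arrays had the same sign at 7 of 12 times. DUR1,2, which encodes the enzyme that splits urea, was at 0.67 at 0.0 h, where the RNA was set against itself, and lower at every later time. It was at 0.28, -0.35, -0.19 and -0.06 in the early samples, at 0.28, -0.95, 0.25 and -0.10 in the middle samples and at -0.55, -0.49 and -0.30 in the late samples. The later RNA of DUR1,2 was above the blank spots on 9 of 24 arrays and its time-zero RNA on 14.

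DAL7, the malate synthase gene, had a rounded course. It was at -0.16 at 0.0 h, at 1.33, 2.08, 1.28 and 2.13 in the early samples, at 3.10, 1.06, 3.01 and 1.92 in the middle samples and at 0.38, 0.49 and 0.19 in the late samples. The early samples lay above the 0.0 h sample, the 2.5 and 4.0 h samples were highest, and the middle samples overlapped the early ones, with 3.5 h below all 4 of them. The 3 late samples lay below all 4 middle ones. The late values were means of opposite signs: the A arrays gave 1.88, 2.76 and 0.94 at 5.0, 5.5 and 6.0 h and the B arrays -1.13, -1.79 and -0.56. In the middle window the A arrays gave 3.26, 2.24, 3.44 and 2.10 and the B arrays 2.95, -0.12, 2.59 and 1.73. The B arrays of the late and middle windows thus did not overlap, whereas the A arrays did. The later RNA of DAL7 was above the blank spots on 20 of 24 arrays and its time-zero RNA on 11.

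DCG1 lies in the same gene cluster, and no role is given to it here. It was at -0.44 at 0.0 h, at 0.28, 0.53, 0.84 and 0.08 in the early samples, at 0.92, 0.80, 1.45 and 1.43 in the middle samples and at 0.21, -0.20 and 1.06 in the late samples. All early and middle samples lay above the 0.0 h sample. These are ratios of dim spots: the later RNA of DCG1 was above the blank spots on 6 of 24 arrays and its time-zero RNA on 0, and no bound above 1.00-fold could be had in any window.

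The first comparison asked how the genes stood in the first hours against time zero. DAL5 was higher by 2.87 ± 1.03 (SE, n = 4 against 1), DAL4 by 2.30 ± 1.21, DAL7 by 1.87 ± 0.67, DAL2 by 1.50 ± 0.63 and DAL1 by 1.36 ± 0.78. DCG1 was at 0.88 ± 0.51, DUR3 at 0.32 ± 0.97, DAL3 at -0.12 ± 0.68 and DUR1,2 at -0.75 ± 0.48. In limma fitted over all 6283 genes with a value at every time, 0 of the 9 genes and 0 genes in all (0%) passed at an adjusted p of 0.05, with adjusted p from 0.804 to 0.991 among the 9. At an unadjusted p under 0.05, DAL5, DAL7 and DAL2 were higher, 3 of 9, where 1.97% of all genes were; 369 genes, 5.87%, passed in either direction. The median of the 9 was 1.36, beside -0.02 over all genes tested.

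In 6 of the 9 genes, DAL5, DAL4, DAL1, DAL2, DAL7 and DCG1, all 4 early samples lay above the 0.0 h sample, which held for 21% of all genes tested. In the authors' deposited table this held for 4 of the 9, DAL5, DAL4, DAL2 and DCG1, since DAL7 and DAL1 are at -0.39 and 0.0088 at 0.5 h there, below their 0.0 h values of -0.14 and 0.044. All 4 middle samples lay above it in 6 genes, DAL5, DAL4, DAL1, DAL2, DAL7 and DCG1, against 17.3% of all genes. In DUR1,2 all 4 early samples lay below it, which held for 24%. The test is limited by its reference, a single sample of time-zero RNA set against itself, in which the 9 genes ranged from -0.86 to 1.04 on the A array and from -0.40 to 0.36 on the B array. Set against a ratio of 0 instead of that sample, 4 of the 9 genes were called higher, beside 4.87% of all genes: DAL5 (adjusted p = 0.00314 by limma), DAL7 (adjusted p = 0.00494), DAL2 (adjusted p = 0.0151) and DAL1 (adjusted p = 0.0350). DAL4 had an adjusted p of 0.0568 there. For DAL1 and DAL4 the size of this difference rests on time-zero RNA above the blank spots on 0 of 8 early arrays, with the later RNA above them on 4 and 5. Time-zero RNA of DAL7 was above them on 3 of 8 early arrays and that of DAL5 on 5 of 8. For DAL5 it was not above them on the B arrays of 1.0, 1.5 and 2.0 h. The early mean of DAL5 was 1.79 on the A arrays and 3.99 on the B arrays. For DAL3 and DUR1,2 the 95% intervals of the early difference from the 0.0 h sample ran from -1.58 to 1.34 and from -1.80 to 0.29.

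The second comparison set the middle against the early window. DUR3 was higher by 1.82 ± 0.62 (SE, n = 4 against 4) and DAL4 by 1.64 ± 0.76, while the third import gene, DAL5, was at -0.44 ± 0.65. Of the enzymes, DAL1 was at 0.83 ± 0.49, DAL7 at 0.57 ± 0.43, DUR1,2 at -0.05 ± 0.31, DAL3 at -0.12 ± 0.43 and DAL2 at -0.37 ± 0.40, and DCG1 was at 0.72 ± 0.32. By limma, 0 of the 9 genes and 0 of all genes (0%) passed, with adjusted p from 0.597 to 0.991 among the 9. At an unadjusted p under 0.05, DUR3 and DCG1 were higher, 2 of 9, beside 3.82% of all genes and 459 genes, 7.31%, in either direction. In 0 of the 9 genes did all middle samples lie above all early ones, and this held for 2.47% of all genes. The median of the 9 was 0.57, beside 0.00 over all genes.

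Within the middle window the genes differed widely between neighbouring times. At 4.0 h, 7 of the 9 genes had a ratio above 1, all but DAL3 and DUR1,2, beside 4.95% of all genes; these are 1 sample and have no replicate check. At 3.5 h 3 did. On the 4.0 h arrays time-zero RNA was above the blank spots on neither array for 6 of the 9 genes, and later RNA was above them on both arrays for 6. The B array gave the higher ratio for 8 of 9 genes at 4.0 h and for 3 of 9 at 3.5 h.

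**Figure D2:**
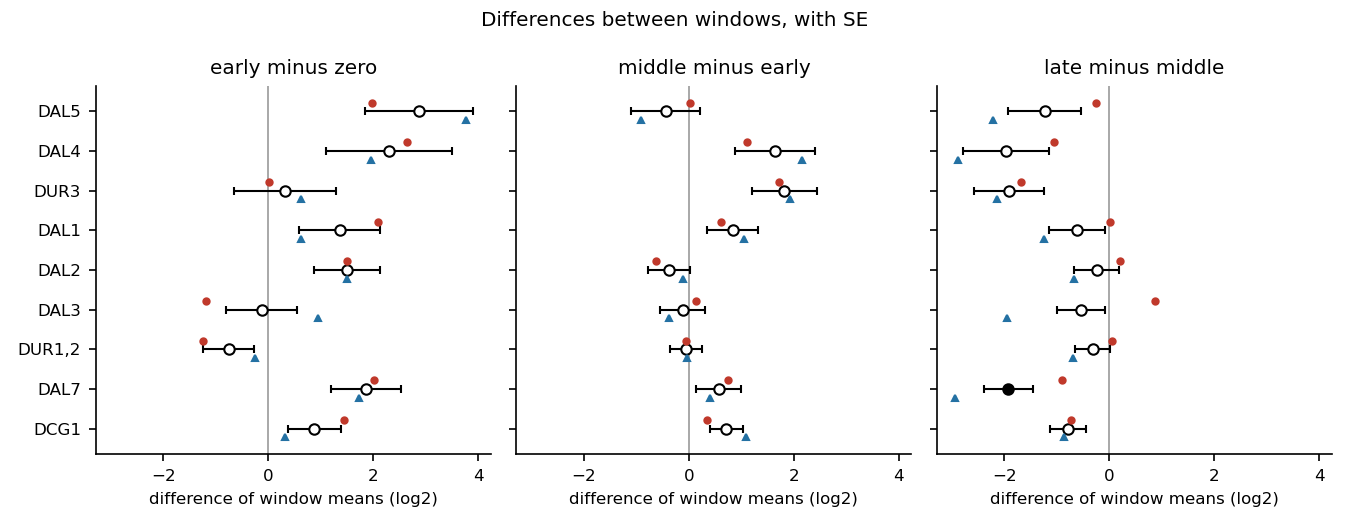
Difference of window means on the log2 scale (x axis) for each gene (y axis) in the 3 comparisons; circles with bars are the fit to both arrays with its SE, the filled circle is the only difference that passed the test, and small red circles and blue triangles are the A and B arrays alone. All 9 late minus middle differences lay below 0, from -1.97 for DAL4 to -0.24 for DAL2, and DAL7 alone passed.

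The third comparison set the late against the middle window. DAL7 fell by 1.92 ± 0.46 (SE, n = 3 against 4), from 2.27 ± 0.97 to 0.35 ± 0.15 (SD), with an adjusted p of 0.0352 by limma. It was the only one of the 9 genes to pass. Of all genes 3.63% did, and 0.318% did in the lower direction. Time-zero RNA of DAL7 was above the blank spots on 2 of 8 middle arrays and on 4 of 6 late ones. The size of the fall thus rests on a denominator not well above background on most middle arrays. DAL4 was at -1.97 ± 0.82, DUR3 at -1.91 ± 0.67, DAL5 at -1.23 ± 0.70 and DCG1 at -0.79 ± 0.35. DAL1 was at -0.61 ± 0.53, DAL3 at -0.54 ± 0.46, DUR1,2 at -0.32 ± 0.33 and DAL2 at -0.24 ± 0.43. At an unadjusted p under 0.05, 4 of the 9 genes were lower, DAL7, DAL4, DUR3 and DCG1, beside 6.57% of all genes. The median of the 9 was -0.79, beside 0.03 over all genes tested.

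DAL7 was also the only one of the 9 genes in which all late samples lay below all middle ones, which held for 5.25% of all genes. Its difference was -0.90 on the A arrays alone (adjusted p = 0.583 by limma) and -2.95 on the B arrays alone (adjusted p = 0.126). Without the 5.0 and 6.0 h samples, whose arrays correlated at about 0, it was -1.79 (adjusted p = 0.143), and with the 3.5 h sample left out as well it was -2.19 (adjusted p = 0.0355). Without the 3.5 h sample alone, DUR3 (-2.65, adjusted p = 0.00417 by limma) and DAL4 (-2.73, adjusted p = 0.0434) passed besides DAL7 (-2.33, adjusted p = 0.00483). These are 3 of 9 genes, beside 3.88% of all genes in that fit. The 3.5 h value was the lowest middle one of DUR3 (0.31), DAL4 (1.07) and DAL7 (1.06). Leaving it out therefore raises their middle means, and these calls are no independent support. Leaving out any other single middle sample gave 0 calls among the 9 genes. Of the other genes, DAL1, DAL2, DAL3 and DUR1,2 had a late minus middle difference above 0 on the A arrays alone, from 0.0096 to 0.87.

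Taken as a smooth course over all 12 times, a spline with 3 degrees of freedom in limma called 0 of the 9 genes and 40 of all genes (0.637%). DAL7 and DAL1 had an unadjusted p under 0.05, 2 of 9, beside 13.1% of all genes.

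The courses of the 9 genes over the 12 times were alike in a part of the group. DAL5 and DAL2 correlated at r = 0.83, DAL4 and DUR3 at 0.82, DAL7 and DAL5 at 0.78 and DAL7 and DAL4 at 0.76. DAL7 and DAL4 had the highest median correlation with the other members, 0.66 and 0.65, and DAL3 and DUR1,2 the lowest, 0.06 and 0.20. These correlations are descriptions over 12 samples that share their arrays, their time-zero reference and the low 3.5 h sample. In the R64 gene table, 6 of the 9 genes stand side by side on chromosome IX, in the order DAL1, DAL4, DAL2, DCG1, DAL7 and DAL3, between YVH1 and MGA2. Neighbours in the cluster correlated at 0.75 (DAL1 with DAL4), 0.57 (DAL4 with DAL2) and 0.21 (DAL2 with DCG1). DCG1 with DAL7 was at 0.56, and DAL7 with DAL3, at one end of the cluster, at 0.06. DUR3 on chromosome VIII and DAL5 on chromosome X correlated with DAL4 in the cluster at 0.82 and 0.59. DAL5 correlated with DCG1 and DAL3 in the cluster at 0.16 and -0.11. The part of gene position in these values was not tested. The genes beside the cluster, the phosphatase gene YVH1 and the transcription factor gene MGA2, had window means between -0.55 and 0.50. In any comparison 0 of 2 passed, beside 0%, 0% and 3.63% of all genes. YVH1 was at 0.76 ± 0.30 in middle minus early (unadjusted p = 0.0232 by limma). In late minus middle it was at -0.70 ± 0.32 (unadjusted p = 0.0490). MGA2 was at -0.12 ± 0.26 and -0.39 ± 0.28.

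**Figure D3:**
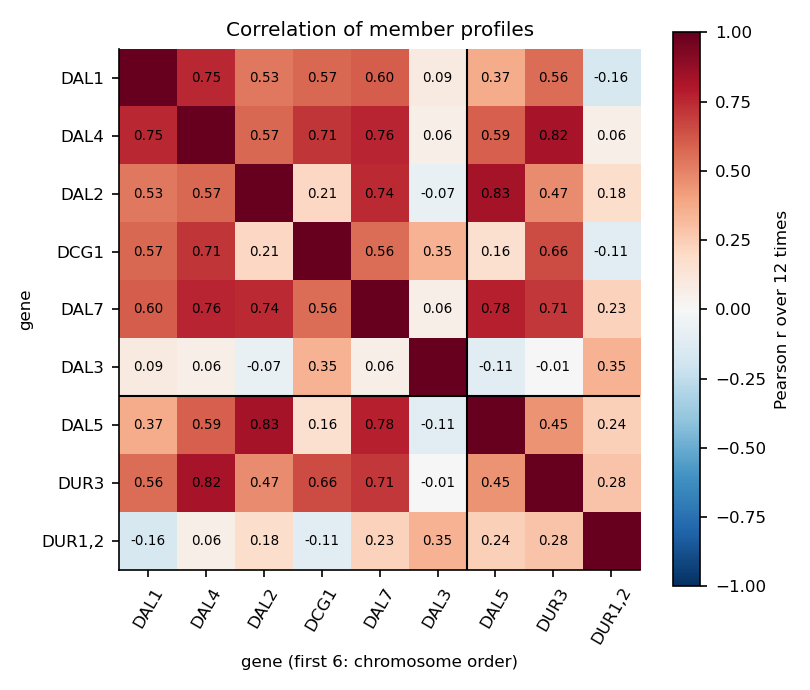
Pearson r between the courses of each pair of the 9 genes over 12 times, written in each cell; the first 6 genes on both axes are in chromosome order and the lines part them from the 3 genes on other chromosomes. DAL3 and DUR1,2 had r of 0.35 or less with every other gene, and DAL5 with DAL2 had the highest r, 0.83.

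Other genes of nitrogen use were read from a list of 20, of which 19 had a value at every time; CAR2, ornithine transaminase, did not. In none of the 3 comparisons did any of the 19 pass, beside 0%, 0% and 3.63% of all genes, and their medians were -0.10, 0.09 and -0.39. The regulators of the 9 genes include the GATA activators Gln3 and Gat1, the GATA repressors Dal80 and Gzf3, Ure2, which restrains Gln3, and Dal81 and Dal82, which act in induction by allophanate. GAT1 had window means of 0.15, 1.24, 0.79 and 0.28 from zero to late, and GLN3 means between -0.28 and 0.15. DAL80 was at 0.55 at 0.0 h, -1.41 in the early window, 0.28 in the middle one and 0.67 in the late one, a middle minus early difference of 1.69 ± 0.63 (adjusted p = 0.614 by limma). DAL82 was at -0.31, 0.78, 0.22 and -0.17.

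Among the enzymes of other nitrogen sources, CAR1, the arginase that makes urea from arginine, was at 0.81 at 0.0 h, 2.60 in the early window, 0.36 in the middle one and 0.91 in the late one. Its middle minus early difference was -2.24 ± 0.66 (adjusted p = 0.559 by limma). GLN1, glutamine synthetase, ran from -0.01 to -1.63, -0.54 and 1.14, with a late minus middle difference of 1.69 ± 0.72 (adjusted p = 0.222). GDH2, the glutamate dehydrogenase that releases ammonium, was at 0.74, -1.03, -0.94 and -0.05. AGX1, which turns glyoxylate into glycine and so uses the same product as Dal7, was at -0.15, -1.63, -1.68 and -1.08. Over the 19 genes the early minus zero differences went both ways, 9 above 0 and 10 below.

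**Figure D4:**
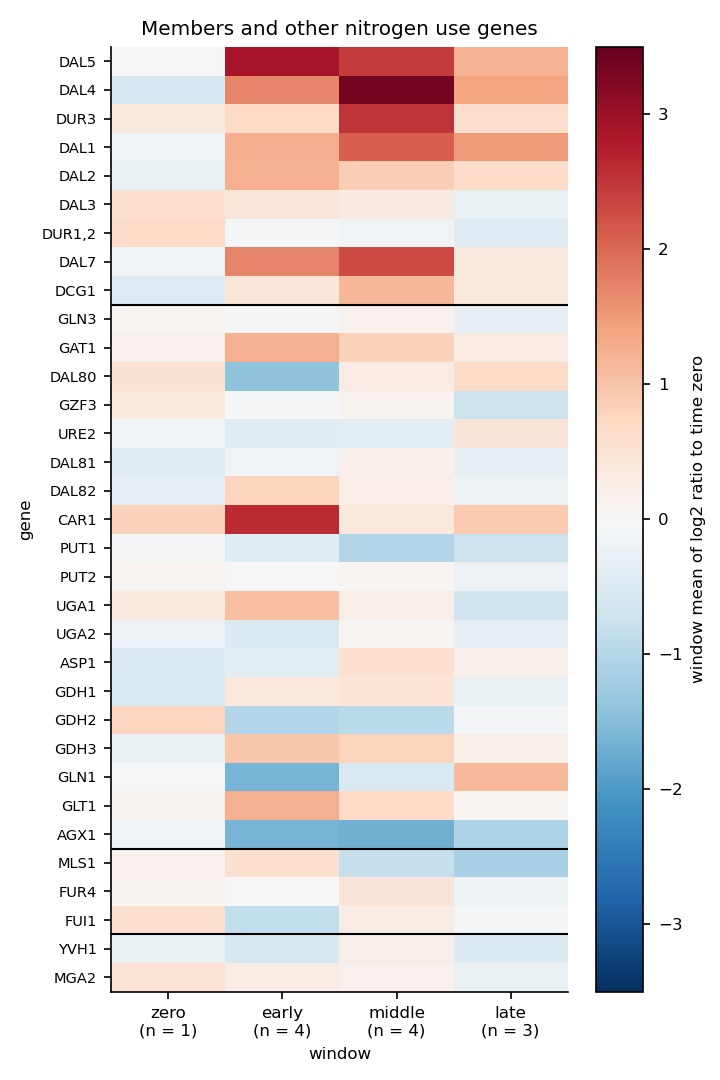
Window mean of the log2 ratio to time zero (colour) in each window (x axis) for the 9 genes, 19 other nitrogen use genes, 3 sequence relatives and the 2 genes beside the cluster (y axis, parted by lines). DAL4 has a middle mean of 3.35, with time-zero RNA above the blank spots on 1 of 8 arrays, and CAR1 has an early mean of 2.60.

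Some of the 9 genes have close relatives whose RNA could reach the same spots. MLS1, the malate synthase of the glyoxylate cycle and a near copy of DAL7, had window means of 0.16, 0.57, -0.82 and -1.13, with its highest value, 2.10, at 0.5 h and its lowest at -2.54. Its course thus went down from early to middle (-1.39 ± 0.66, adjusted p = 0.677 by limma), where DAL7 was at 0.57 ± 0.43. FUR4 and FUI1, the uracil and uridine permease genes related to DAL4, had window means between -0.86 and 0.57. From early to middle FUI1 was at 1.14 ± 0.41 (unadjusted p = 0.0158 by limma) and FUR4 at 0.43 ± 0.31. From middle to late they were at -0.34 ± 0.44 and -0.62 ± 0.33. Both differences had the sign of DAL4, whereas early minus zero, at -1.44 and -0.11, did not. In any comparison 0 of the 3 relatives passed, beside 0%, 0% and 3.63% of all genes. The probes' sequences were not used here, and whether relatives contributed to the spots of DAL7 or DAL4 was not tested.

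The genes whose course over the 12 times was most like the mean of the 9 were ILV3, dihydroxyacid dehydratase (r = 0.89), QDR3, a multidrug transporter gene (0.89), ARO4, an enzyme of aromatic amino acid synthesis (0.86), REE1 (0.85) and RPL26A, a large-subunit ribosomal protein gene (0.84). ARO4 had window means of 0.00, 0.89, 1.50 and 0.58 from zero to late, and those of QDR3 did not exceed 0.45. Later RNA of REE1 was above the blank spots on 1 of 24 arrays. Most like DAL7 were LYS12, homoisocitrate dehydrogenase of lysine synthesis (0.89), THI80, thiamine pyrophosphokinase (0.89, above the blank spots on 2 of 24 arrays), and ALD5, a mitochondrial aldehyde dehydrogenase (0.88). ALD5 was at -0.38, 0.79, 1.27 and -0.44. Over all genes the median r was -0.03 with the mean of the 9 and -0.02 with DAL7, and the 95th percentiles were 0.50 and 0.53.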

How the data were processed

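Each deposited array file lists an intensity per dye and quality letters for every spot; the authors' quantification settings are not stated in the labels or headers. The intensity values deposited by the authors were taken as background-subtracted, since negative values occur. Channel 1 was read as Cy3 and channel 2 as Cy5 on every array, with the dyes taken from the labels. Per the file headers the control image comes first on each array, but read in that order the A and B arrays correlated at a median r of -0.27. With the dye reading this was 0.270, and channel 2 had the higher background on 22 of 24 arrays. The authors' series table holds a log2 ratio per gene and time, with no normalization stated; it served as an alternative.

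Of 13056 spots per array, 12614 carry genes. Control and blank spots, spots marked U or Z and values at or below 0 were left out; spots marked S, a letter the files do not explain, were kept. Median gene-spot intensity ran from 18000 to 333344. Log2 ratios were corrected with loess (span 0.3, 4 iterations), signs of B arrays were flipped, duplicate spots were averaged, and then both arrays of each time, which hold the same RNA. A gene was above background where its spots' mean lay over the 95th percentile of 250 blank spots. This held for 23.9% to 89.2% of genes in the later RNA and 17.6% to 84.5% in time-zero RNA. A lower bound sets the later RNA against the lowest time-zero signal above background on each array.

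With R 4.3.3 and limma 3.58.1, window means and a natural spline were fitted to 12 samples over 6283 genes, with Benjamini-Hochberg adjustment at 0.05. The single 0.0 h sample was assumed to vary like the others. The procedure was tested on simulated data. The members, windows and lists were chosen with earlier results of these data known. Named genes were all 9 members, fixed lists of nitrogen use genes, relatives, neighbours and markers, the 5 genes most correlated with the members' mean and the 3 most correlated with DAL7. Symbols came from the R64 table, in which all 9 identifiers matched (DUR1,2 is listed there without the comma). Alternatives were single dye orientations, normexp, spots marked S left out, scale normalization, median centring, other windows, dim genes left out, the authors' table, a ratio of 0 as reference, a spline with 2 degrees of freedom and leaving out each sample. Leaving out the 5.0 and 6.0 h samples, or the 3.5 h sample too, and the authors' table without 0.5 h were added after seeing the data.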

Additional observations from a re-analysis of the deposited data

Results flagged for a closer look

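One value stood far from the rest of its window: DAL1 at 4.0 h, at 3.338 (2.80 on the A array and 3.88 on the B array), against 1.56 to 1.77 at the other 3 middle times. Its gap to the next value was 0.878 of the range of the 4 samples. Over the 20 groups of 4 samples looked at, chance gives about 1 such value in 20.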

How the results depend on the processing

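Over 24 alternatives DAL7 stayed lower in the late than in the middle window, from -2.95 to -0.90, but kept its call in only 10. The count of the 9 genes called there, 1, became 0 with A arrays alone, B arrays alone, spots marked S left out, scale normalization, median centring, windows ending at 1.5 and 4.0 h, the authors' series table, and the 5.0 and 6.0 h samples left out; it became 2 (DAL7 and DUR3) with 3.5, 5.0 and 6.0 h left out, and ran from 0 to 3 when single samples were left out. It was 0 without the 2.5, 4.0, 4.5, 5.0, 5.5 or 6.0 h sample. The adjusted p of DAL7 ran from 0.00483 to 0.583. The median of the 9 genes, -0.79, was -0.25 on A arrays alone and -1.95 on B arrays alone. Against a ratio of 0, 4 genes were called in the early window, and the spline called 1 (DUR3, adjusted p = 0.0427) with 3.5, 5.0 and 6.0 h left out. All-gene calls, 228 for late against middle, were 0 (A or B arrays alone, or other windows), 36 (scale), 94 (median centring), 105 (normexp), 120 (S left out), 702 and 774 (2 or 3 samples left out) and 124 to 466 (single samples left out). Early against zero, 0 genes, gave 12 with scale normalization, 704 against a ratio of 0 and 1 with A arrays alone, normexp or other windows. Middle against early, 0 genes, gave 1 without 4.0 h or without 3.5, 5.0 and 6.0 h. The 40 spline calls ran from 0 to 146 without single samples and from 0 (B arrays alone, normexp, scale, or 5.0 and 6.0 h left out) to 262 (A arrays alone) otherwise. Of 27 differences of single genes, 17 kept their sign throughout. Changes of sign, none called, were as follows. With A arrays alone, middle minus early was 0.13 for DAL3 and 0.030 for DAL5, and late minus middle was 0.0096 for DAL1, 0.20 for DAL2, 0.87 for DAL3 and 0.061 for DUR1,2. DAL3 early minus zero was 0.95 with B arrays alone, 0.0084 with normexp, 0.22 with median centring and 0.43 against a ratio of 0. DUR1,2 middle minus early was 0.052 with normexp, 0.22 with the authors' table, 0.27 with that table without 0.5 h and 0.22 without 3.5, 5.0 and 6.0 h. Median centring gave 0.12 for DAL3 and -0.13 for DCG1 in middle minus early and 0.21 for DAL2 in late minus middle. Other windows gave middle minus early of 0.073 for DAL2 and 0.056 for DAL5. DAL5 middle minus early was 0.59 with the authors' table, 0.18 with that table without 0.5 h and 0.13 without 3.5, 5.0 and 6.0 h, and DAL3 was 0.024 and 0.063 with the table with and without 0.5 h. Leaving out single samples gave middle minus early from -0.32 to 0.11 for DAL3, -0.83 to 0.13 for DAL5 and -0.19 to 0.22 for DUR1,2, and late minus middle from -0.57 to 0.028 for DAL2. The cause of these changes was not tested. The authors' 0.5 h column followed the arrays at r = 0.157, where the other 11 columns did at 0.877 to 0.963. Spots not above the blanks limit DCG1, DUR1,2, DAL1 and DAL4 most. They also limit the middle ratios of DAL7 and DUR3, whose time-zero RNA was above the blanks on 2 of 8 middle arrays each. In the early window time-zero RNA was above them on 5 of 8 arrays for DAL5, 3 of 8 for DAL7 and 0 of 8 for DUR3. No paired analysis between windows was possible because each time is 1 pooled sample.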
